A study of Mus musculus with 11 samples.

Results

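The 8 genes described here, Slc1a2, Slc1a3, Glul, Kcnj10, Atp1b2, Aqp4, Gja1 and Gjb6, carry glutamate, potassium and water homeostasis in astrocytes. They were taken by symbol from the 32285 genes of the single-cell RNA sequencing count tables and were read in every library. Cells came from the right brain of mice, and each library is taken as a separate mouse, since the study counts as many mice as there are libraries. The 4 groups were sham + WT (replicates 1, 2 and 3), sham + Lrg1-/- (replicates 1, 2 and 5), MCAO/R + WT (replicates 1 and 2) and MCAO/R + Lrg1-/- (replicates 1, 2 and 5). MCAO/R is transient blockage of the middle cerebral artery followed by reperfusion, a mouse model of ischemic stroke, and sham mice had surgery without the blockage. Lrg1 encodes a secreted glycoprotein, and Lrg1-/- mice lacked it in all cells from conception, so that no effect could be assigned to a cell type. WT mice were male C57BL/6 mice from one source, whereas the knockout line was made elsewhere and kept on a related background. The study's methods state different ages for both kinds of mice, and the labels give neither an age nor the time after reperfusion. Genotype, source, age and background therefore cannot be told apart.

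Astrocytes surround synapses and blood vessels. They take up glutamate released by neurons through the transporters EAAT2 (Slc1a2) and EAAT1 (Slc1a3), and glutamine synthetase (Glul) turns it into glutamine, which neurons take back. Potassium is buffered through the channel Kir4.1 (Kcnj10) and the sodium pump, to which Atp1b2 adds a beta subunit. Water moves through aquaporin-4 (Aqp4), which is dense on endfeet at vessels, and connexin 43 (Gja1) and connexin 30 (Gjb6) join astrocytes through gap junctions.

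Of the 8 genes, 6 matched an entry in the RefSeq promoter table (GRCm38.p6). The 250 bases before the annotated start are printed for Slc1a3 and Glul, the genes with the largest genotype differences among those that passed the test in the marker-only astrocytes described below. Slc1a3 lies on chromosome 15 at 8634124 to 8710764 (minus strand) and Glul on chromosome 1 at 153899944 to 153909723 (plus strand). Both windows lay outside annotated genes, at chr15:8710808-8711057 and chr1:153899679-153899928. Capitals mark the CCAAT motif on either strand (CCAAT or ATTGG).
Slc1a3: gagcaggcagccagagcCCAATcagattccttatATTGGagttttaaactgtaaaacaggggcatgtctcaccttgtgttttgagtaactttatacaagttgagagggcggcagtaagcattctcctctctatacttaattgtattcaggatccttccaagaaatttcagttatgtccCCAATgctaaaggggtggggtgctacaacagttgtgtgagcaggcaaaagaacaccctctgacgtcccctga
Glul: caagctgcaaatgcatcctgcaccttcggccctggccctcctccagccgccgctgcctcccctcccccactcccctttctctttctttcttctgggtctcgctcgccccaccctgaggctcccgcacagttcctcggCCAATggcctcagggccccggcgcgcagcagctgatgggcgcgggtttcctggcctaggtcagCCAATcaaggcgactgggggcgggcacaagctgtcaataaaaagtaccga
The Slc1a3 window held 3 CCAAT motifs and the Glul window held 2, and 33.8% of 32851 promoter windows held at least 1. Both windows held 1 GC box (GGGCGG on either strand), which 32.7% of windows held. Slc1a3 also held 1 TATAAA motif, found in 12.4% of windows. Kcnj10 held 2 CCAAT motifs and 2 GC boxes, whereas the windows of Slc1a2, Gja1 and Gjb6 held none of these 3 motifs. The Slc1a2 window (chr2:102706188-102706437) lay inside the gene and held 29 exon bases. It does not describe the bases before the gene's start at 102658659. The core ACGTG, found in 16.6% of windows, was in none of the 6. These matches describe letters only, not binding.

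The libraries held 37159497 to 171813031 unique molecular identifiers (UMIs), each a counted RNA molecule. Of 155804 cell barcodes, 132437 passed the limits of over 500 genes, over 1000 UMIs and under 25% mitochondrial UMIs. Lrg1 was read at 16183 and 17799 UMIs in the MCAO/R + WT libraries and at 192 to 658 in the sham + WT libraries, and at 0 or 1 in all 6 Lrg1-/- libraries. Pairs of libraries shared 2897 barcodes in sum. Astrocytes by the rule were cells with at least 4 of Aqp4, Aldh1l1, Gja1, Slc1a2, Slc1a3 and Aldoc detected, which 4516 cells met. All 6 markers were detected in every library. However, 2891 of these cells also met the gate of at least 1 of 12 other cell types, each set by at least 4 of 6 markers. That share was 55.6% in sham + WT, 82.7% in sham + Lrg1-/-, 56.2% in MCAO/R + WT and 84.7% in MCAO/R + Lrg1-/-. The rule therefore gathered mixed profiles more often in the knockout libraries, from 73.0% to 89.7% per library, against 51.8% to 65.8% in WT libraries. Doublets were not removed by a caller. In the rule cells the 5 haemoglobin and red cell transcripts summed to 14.7 to 47.6 plain CPM (UMIs per 1e+06 UMIs of the sum, without TMM adjustment) in WT libraries and to 9033 to 96808 in Lrg1-/- libraries. The 6 choroid plexus markers summed to 852 to 12904 and to 15135 to 110252 plain CPM in the same order.

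The rule uses 4 of the 8 genes, so that Aqp4, Gja1, Slc1a2 and Slc1a3 in rule cells are given without a test. A second gate without any of the 8 genes asked for 4 of Aldoc, Aldh1l1, Ntsr2, Cldn10, Plpp3 and Gpr37l1, and 3135 cells met it. Of these, 2741 also met the rule. Finally, 1527 of the 3135 met no other gate. They are called marker-only astrocytes here and carry the main account, a choice made after the mixed cells were seen. There were 209 to 286 of them per sham + WT library, 15 to 27 per sham + Lrg1-/- library, 123 and 482 in the MCAO/R + WT libraries, and 23 to 51 per MCAO/R + Lrg1-/- library. For them the planned limit of 20 cells per library was lowered to 10. This let in sham + Lrg1-/- replicates 2 and 5, with 17 and 15 cells. At the planned limit only replicate 1 of that group remained, so that the sham calls in these cells rest on the lowered limit. The shares of mixed cells and the ratio of both connexins are plotted by mouse.

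**Figure D1:**
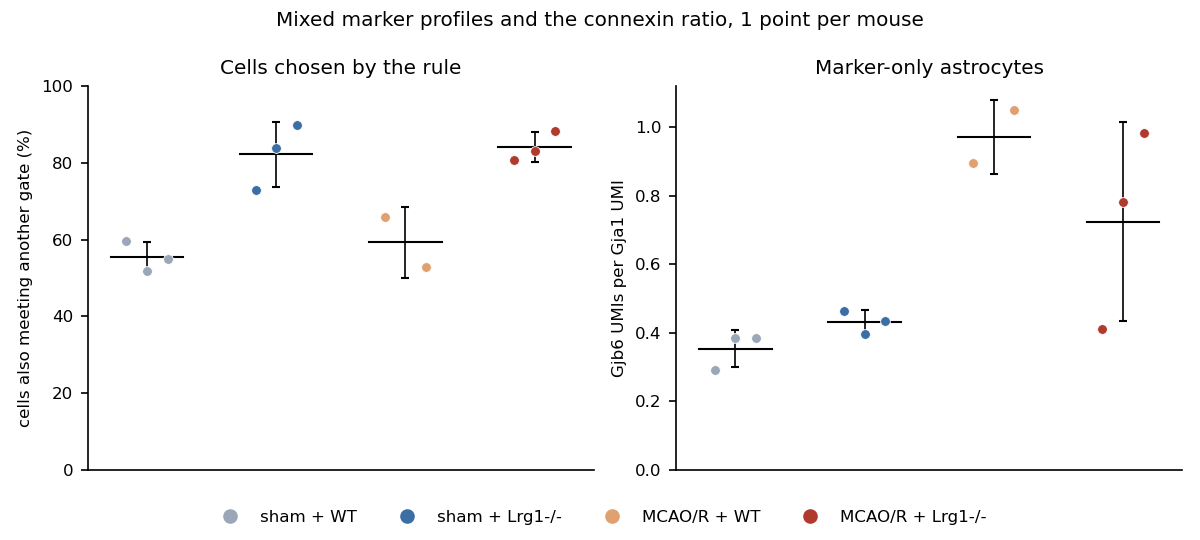
Left, the percent of astrocytes by the rule that also met another cell type's gate, with 1 point per mouse and 4 groups. Right, Gjb6 UMIs per Gja1 UMI in marker-only astrocytes. Every Lrg1-/- library lies above every WT library on the left, and both MCAO/R + WT libraries lie above all sham libraries on the right.

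Raw UMIs were summed per mouse and fitted over all 4 groups with edgeR's quasi-likelihood test. Levels are CPM, in which each sum was scaled to 1e+06 after TMM adjustment. A gene was called when its p, adjusted over all genes tested by the Benjamini-Hochberg method, was below 0.05 and its natural-log fold change was beyond 0.25 in either direction. Differences are log2 fold changes with their standard errors. UMIs are read from the 3′ end and levels are compared within a gene only. In sums of this kind, less RNA per astrocyte and a larger part of other RNA in its barcode cannot be told apart. The p-values measure the spread between libraries, each taken as a separate mouse.

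In marker-only astrocytes the glutamate transporters and Glul stood lower in the knockout, and the channel Kcnj10 did not. After MCAO/R, Slc1a2 and Slc1a3 were lower in Lrg1-/- than in WT mice. After sham surgery, Slc1a3, Glul and Slc1a2 were lower. No gene of the 8 was higher in the knockout by the test. The call took 2 of 8 genes after MCAO/R, where 1.79% of all genes tested were called, and 3 of 8 after sham surgery, where 1.89% were called. The median log2 difference of the 8 genes was -0.87 after MCAO/R and -0.74 after sham surgery, against 0.01 and -0.01 over all 6976 genes tested. All 8 genes passed the filter on low counts.

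**Figure D2:**
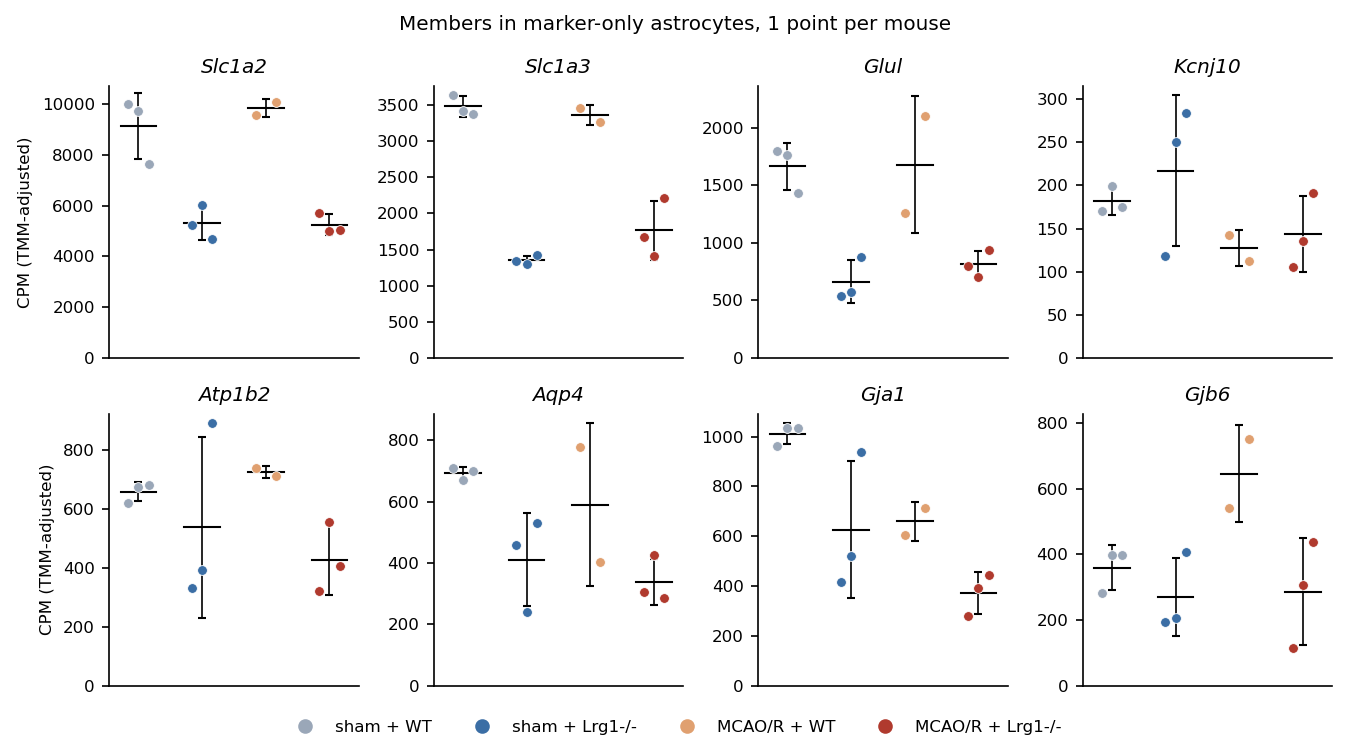
CPM of the 8 genes in marker-only astrocytes, with 1 point per mouse and bars for mean and SD (2 or 3 mice per group). Slc1a2 and Slc1a3 of the Lrg1-/- mice sit below those of all WT mice, whereas Kcnj10 overlaps between genotypes.

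Slc1a2, which encodes the main glutamate transporter of the forebrain, was at 10010.2, 9758 and 7642 CPM in the sham + WT mice and at 5238, 6015 and 4692 CPM in the sham + Lrg1-/- mice. It was at 9592 and 10100.1 CPM in the MCAO/R + WT mice and at 5724, 5007 and 5041 CPM in the MCAO/R + Lrg1-/- mice. All 6 knockout mice were below all 5 WT mice. The difference was -0.90 ± 0.21 (SE) after MCAO/R (adjusted p = 0.0368) and -0.78 ± 0.19 after sham surgery (adjusted p = 0.0487). Neither call was firm. When 1 library was left out at a time, the MCAO/R call was kept in 5 of 11 fits, with differences of -1.02 to -0.86 and adjusted p up to 0.138. It was lost without sham + WT replicate 1 or 2, MCAO/R + WT replicate 1 or 2, or MCAO/R + Lrg1-/- replicate 2 or 5. The sham call was kept in 5 of 11 fits (-0.93 to -0.72, adjusted p up to 0.174) and was lost without sham + WT replicate 1 or 2, any sham + Lrg1-/- library, or MCAO/R + Lrg1-/- replicate 5.

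Slc1a3, the transporter also carried by radial glia, was at 3648, 3419.5 and 3384 CPM in the sham + WT mice and at 1342, 1294 and 1420.0 CPM in the sham + Lrg1-/- mice. It was at 3466 and 3264 CPM in the MCAO/R + WT mice and at 1674, 1406 and 2210.3 CPM in the MCAO/R + Lrg1-/- mice. Again no knockout mouse reached the WT range. The sham difference, -1.37 ± 0.20 (adjusted p = 0.00224), a 2.58-fold lower level, held without any 1 of the 11 libraries (adjusted p up to 0.0248). The MCAO/R difference was -0.94 ± 0.22 (adjusted p = 0.0378). That call was kept in 4 of 11 fits (-1.16 to -0.83, adjusted p up to 0.133) and was lost without any 1 sham + WT library, either MCAO/R + WT library, or MCAO/R + Lrg1-/- replicate 1 or 2.

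Glul was at 1802, 1767 and 1431 CPM in the sham + WT mice and at 536, 576 and 877 CPM in the sham + Lrg1-/- mice. It was at 1257 and 2101 CPM in the MCAO/R + WT mice and at 798, 699 and 938 CPM in the MCAO/R + Lrg1-/- mice. The genotypes did not overlap under either surgery, and both MCAO/R + WT mice were far apart from each other. Glul fell in the sham comparison by 1.35 ± 0.26 on the log2 scale (adjusted p = 0.0135). This was kept in 7 of 11 fits (-1.64 to -1.26, adjusted p up to 0.083) and lost without sham + WT replicate 1 or 2 or sham + Lrg1-/- replicate 1 or 2. After MCAO/R the difference of -1.06 ± 0.27 missed the threshold (adjusted p = 0.059).

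In marker-only astrocytes the genotypes overlapped for Kcnj10. It ranged from 170 to 199.8 CPM in sham + WT, from 118 to 284 CPM in sham + Lrg1-/-, from 112 to 142 CPM in MCAO/R + WT and from 105 to 191 CPM in MCAO/R + Lrg1-/- mice. The differences were 0.17 ± 0.30 after sham surgery (adjusted p = 0.836) and 0.14 ± 0.31 after MCAO/R (adjusted p = 0.898). The knockout values rest on 20 to 35 Kcnj10 UMIs per library. Within 2 standard errors the sham difference spans -0.42 to 0.76, so that a change of moderate size was not detectable at this depth. In all cells of the second gate, mixed ones included, the Kcnj10 difference had the opposite sign and the genotypes did not overlap. There it was at 112 to 138 CPM in sham + WT against 44.4 to 103 CPM in sham + Lrg1-/- mice (-0.68 ± 0.28, adjusted p = 0.107), and at 89.2 to 92.3 CPM in MCAO/R + WT against 48.2 to 68.8 CPM in MCAO/R + Lrg1-/- mice (-0.69 ± 0.31, adjusted p = 0.137). In astrocytes by the rule it was at 90.9 to 115 against 45.3 to 100.3 CPM after sham surgery and at 79.5 to 92.3 against 46.0 to 65.0 CPM after MCAO/R. None of these differences passed the test. Atp1b2, the other potassium gene, was at 620 to 680.2 CPM in sham + WT and 330 to 889 CPM in sham + Lrg1-/- mice, where sham + Lrg1-/- replicate 5 stood above every WT library. After MCAO/R it was at 709.7 and 738 CPM in WT and at 319 to 556 CPM in Lrg1-/- mice, without overlap. Neither difference passed the test (-0.33 ± 0.31, adjusted p = 0.648, and -0.75 ± 0.33, adjusted p = 0.277).

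Aqp4 was at 669.6 to 709 CPM in the 3 sham + WT mice, a narrow range, and at 459, 239 and 531 CPM in the sham + Lrg1-/- mice. After MCAO/R it was at 778 and 403 CPM in the WT mice and at 306, 425 and 286 CPM in the Lrg1-/- mice. The groups were apart after sham surgery and overlapped after MCAO/R. The differences of -0.75 ± 0.30 (adjusted p = 0.218) and -0.78 ± 0.31 (adjusted p = 0.24) did not pass the test over all genes.

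Gja1 was at 964, 1035 and 1037 CPM in the sham + WT mice and at 418, 522 and 938 CPM in the sham + Lrg1-/- mice. It was at 604 and 715 CPM in the MCAO/R + WT mice and at 278, 390.2 and 445 CPM in the MCAO/R + Lrg1-/- mice. Knockout mice were below WT mice under both surgeries, and the differences of -0.72 ± 0.27 (adjusted p = 0.19) and -0.84 ± 0.29 (adjusted p = 0.164) did not pass the test. Gjb6 was at 280.5, 397 and 399 CPM in the sham + WT mice and at 194, 207 and 407 CPM in the sham + Lrg1-/- mice. It was at 541 and 750.5 CPM in the MCAO/R + WT mice and at 114, 305 and 437 CPM in the MCAO/R + Lrg1-/- mice. Gjb6 did not overlap between genotypes after MCAO/R (-1.22 ± 0.39, adjusted p = 0.137) and overlapped after sham surgery (-0.46 ± 0.39, adjusted p = 0.616).

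Other measures moved with genotype in the same marker-only cells. The 6 markers of the second gate, none of them among the 8 genes, summed to 7174 to 8304 plain CPM in sham + WT, 2759 to 5766 in sham + Lrg1-/-, 5064 to 6767 in MCAO/R + WT and 2942 to 4506 in MCAO/R + Lrg1-/- libraries. The 5 red cell transcripts summed to 11.5 to 31.9 plain CPM in WT and to 3380.0 to 38326 in Lrg1-/- libraries, and the 6 choroid plexus markers to 142 to 514 and to 2775 to 8491. Median UMIs per cell were 7092.5 to 7836.5 in sham + WT and 3873 to 6084 in sham + Lrg1-/- libraries. After MCAO/R they were 8859.5 and 10780 in WT and 3834 to 8487 in Lrg1-/- libraries, so that the genotypes did not overlap within either surgery. Microglia markers summed to 338 to 455 plain CPM in WT and 505 to 1783 in Lrg1-/- libraries, which did not overlap. Oligodendrocyte markers summed to 78.6 to 119 plain CPM in sham + WT and 138 to 199 in sham + Lrg1-/- libraries, and to 74.9 to 186 and 199 to 666 after MCAO/R. Precursors of oligodendrocytes likewise had higher marker sums in every Lrg1-/- library than in the WT libraries of the same surgery (73.4 to 105 against 66.3 to 67.2 after sham surgery, 57.4 to 99.4 against 47.4 to 55.3 after MCAO/R). Mural markers did so after sham surgery (239 to 1624 against 175 to 210.1) but overlapped after MCAO/R. Markers of neutrophils (24.6 to 451 against 15.1 to 19.1), neuroblasts and neurons (111 to 320.1 against 93.1 to 103) and ependymal cells (53.3 to 133 against 47.7 to 52.8) did so after MCAO/R and overlapped after sham surgery. The median share of mitochondrial UMIs was 3.73% to 4.29% in sham + WT and 5.44% to 6.76% in sham + Lrg1-/- libraries. After MCAO/R it was 3.34% and 3.71% in WT and 3.92% to 5.52% in Lrg1-/- libraries. The genotypes thus did not overlap within either surgery. The part of these in the genotype differences was not tested.

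Surgery itself moved none of the 8 genes past the threshold in marker-only astrocytes. In WT mice 0 of 8 were called by edgeR and 0 by DESeq2, with 2 at an unadjusted p under 0.05, where 5.71% of all genes were called. In Lrg1-/- mice 0 of 8 were called by both tools, with 1 at an unadjusted p under 0.05, against 3.02% of all genes. The 2 genes of WT mice were both connexins. Gjb6 differed by 0.85 ± 0.36 (adjusted p = 0.203) and Gja1 by -0.62 ± 0.28 (adjusted p = 0.242) between MCAO/R and sham surgery. The WT groups of 3 and 2 mice did not overlap for 4 of the 8 genes, which were both connexins, Kcnj10 and Atp1b2. The share of all genes without overlap was not computed. Gjb6 UMIs per Gja1 UMI were 0.29, 0.38 and 0.38 in the sham + WT mice and 0.90 and 1.05 in the MCAO/R + WT mice. They were 0.46, 0.40 and 0.43 in the sham + Lrg1-/- mice and 0.41, 0.78 and 0.98 in the MCAO/R + Lrg1-/- mice, where replicate 1 stayed at the sham level. In all cells of the second gate the ratio was 0.28, 0.37 and 0.34 in sham + WT, 0.82 and 0.97 in MCAO/R + WT, 0.30, 0.32 and 0.40 in sham + Lrg1-/- and 0.39, 0.15 and 0.25 in MCAO/R + Lrg1-/- mice. There the 2 Lrg1-/- groups overlapped, and the mean after MCAO/R (0.26) was below that after sham surgery (0.34). This ratio was chosen after its values were seen and has no test. For Slc1a2 the surgery difference lay between -0.31 and 0.53 in WT mice and between -0.40 and 0.37 in Lrg1-/- mice, within 2 standard errors. The interaction of genotype and surgery was called for 0 of 8 genes by edgeR and 0 by DESeq2, with 0 at an unadjusted p under 0.05, against 0% of all genes. Thus no difference between the genotype effects of the 2 surgeries was detectable for these genes. Its widest interval was that of Gjb6, from -1.87 to 0.35.

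When the second gate was used with all its cells, mixed ones included, the genotype differences were farther from 0 than in its marker-only cells, except those of Aqp4 after MCAO/R (-0.60 against -0.78) and Glul after sham surgery (-1.30 against -1.35). All 8 were negative in both comparisons, so that for Kcnj10 the sign changed, from 0.17 to -0.68 after sham surgery and from 0.14 to -0.69 after MCAO/R. After MCAO/R, Gjb6 (-3.05 ± 0.36, adjusted p = 0.00545), Glul (-1.55 ± 0.33, adjusted p = 0.0197), Slc1a2 (-2.52 ± 0.55, adjusted p = 0.0214) and Slc1a3 (-1.97 ± 0.45, adjusted p = 0.0241) were lower in Lrg1-/- mice. These were 4 of 8 genes, where 13.5% of all genes were called. Without MCAO/R + Lrg1-/- replicate 2 the calls of Slc1a2, Slc1a3 and Glul were lost, as they were without MCAO/R + WT replicate 2, and those of Slc1a2 and Slc1a3 also without MCAO/R + WT replicate 1 (adjusted p up to 0.221). Gjb6 kept its call in all 11 fits (adjusted p up to 0.0381). After sham surgery 6 of 8 genes were lower, all but Aqp4 (adjusted p = 0.0609) and Kcnj10 (adjusted p = 0.107), against 20.1% of all genes. Slc1a3 (-2.13 ± 0.42, adjusted p = 0.0107) kept its sham call in all 11 fits. The other 5 lost theirs without sham + WT replicate 2, and all but Gjb6 also without sham + WT replicate 1. Without sham + WT replicate 3 the calls of Slc1a2, Gja1 and Atp1b2 were lost, without sham + Lrg1-/- replicate 5 those of Gja1 and Atp1b2, and without sham + Lrg1-/- replicate 2 that of Gja1. That of Atp1b2 was lost also without sham + Lrg1-/- replicate 1 or either MCAO/R + WT library, and that of Slc1a2 without MCAO/R + Lrg1-/- replicate 2, with adjusted p up to 0.115. With a replicate block 0 genes of all were called between genotypes after either surgery, so that each of these calls was lost. Surgery gave 0 of 8 calls by edgeR and by DESeq2 in WT mice (0 at an unadjusted p under 0.05, background 0.247%) and 0 of 8 in Lrg1-/- mice (1 at an unadjusted p under 0.05, background 0.0444%). The interaction gave 0 of 8 by both tools (1 at an unadjusted p under 0.05, background 0%).

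**Figure D3:**
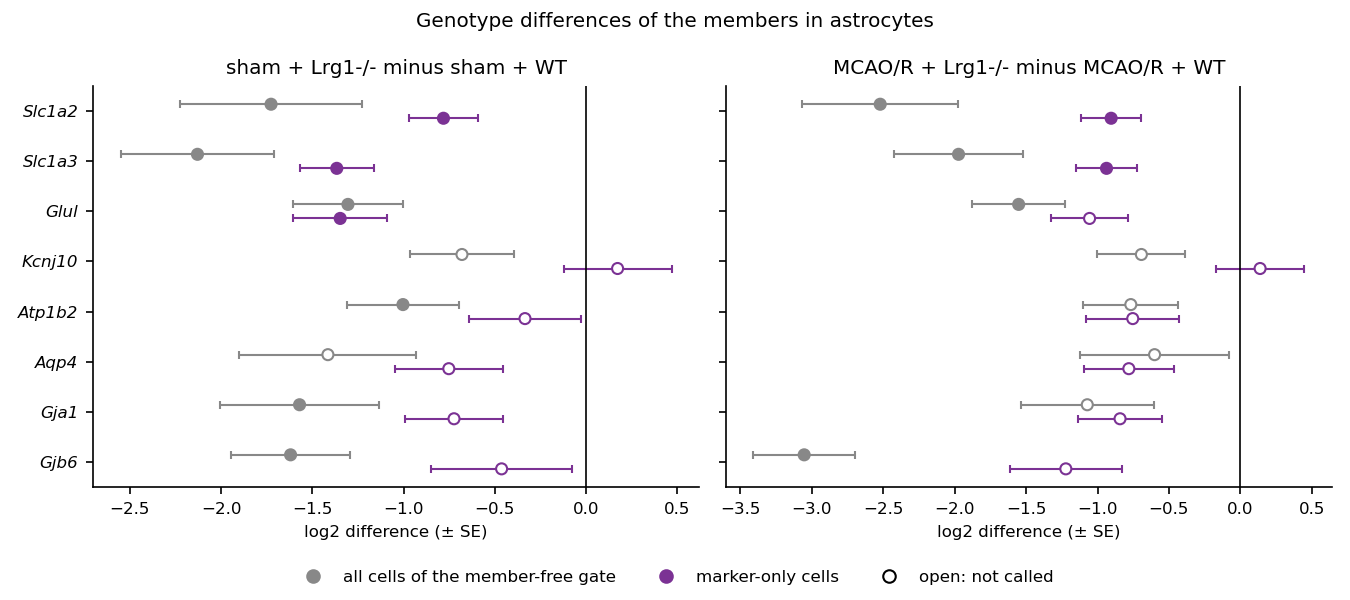
Log2 difference of Lrg1-/- minus WT with its SE for the 8 genes, after sham surgery and after MCAO/R, in all cells of the second gate and in its marker-only cells. Filled points were called. For Gjb6 after MCAO/R the point moves from -3.05 in all cells to -1.22 in marker-only cells.

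In astrocytes by the rule the 4 genes outside the gate could be tested. Gjb6 was at 117, 166 and 131 CPM in sham + WT, 57.0, 46.5 and 29.4 CPM in sham + Lrg1-/-, 165 and 282 CPM in MCAO/R + WT and 23.3, 20.04 and 20.6 CPM in MCAO/R + Lrg1-/- mice. All knockout values were below all WT values. It was lower after MCAO/R (-3.39 ± 0.31, adjusted p = 0.0025, kept in all 11 fits) and after sham surgery (-1.65 ± 0.28, adjusted p = 0.0099, lost without sham + WT replicate 1 or 2 with adjusted p up to 0.0576). Among the rule cells, 18.8%, 58.3% and 61.8% in the MCAO/R + Lrg1-/- libraries also met the ependymal gate. In the MCAO/R + WT libraries 23.9% and 9.1% did so. Ependymal cells held Gjb6 at 0 to 3.06 plain CPM, and their part in the Gjb6 difference was not tested. Glul was lower after MCAO/R (-1.51 ± 0.35, adjusted p = 0.0269), a call lost without MCAO/R + WT replicate 2 or MCAO/R + Lrg1-/- replicate 2 or 5 (adjusted p up to 0.274), and Atp1b2 after sham surgery (-0.90 ± 0.26, adjusted p = 0.043). The Atp1b2 call was kept in 4 of 11 fits (adjusted p up to 0.13) and was lost without any 1 sham + WT library, sham + Lrg1-/- replicate 2 or 5, or either MCAO/R + WT library. That made 2 of 4 genes in each comparison, against 12.5% of all genes after MCAO/R and 14.8% after sham surgery. In marker-only cells of the rule 1 of these 4 genes was called after MCAO/R and 0 after sham surgery. With a replicate block 0 genes of all were called in either comparison, so that each of these calls was lost. Surgery gave 0 of 4 calls in WT mice (DESeq2 0, with 1 at an unadjusted p under 0.05, background 0.663%) and 0 of 4 in Lrg1-/- mice (DESeq2 1, with 1 at an unadjusted p under 0.05, background 0.207%). The interaction gave 0 of 4 (DESeq2 1, with 1 at an unadjusted p under 0.05, background 0%). The gate genes are given as values only. Slc1a3 ranged from 1055 to 1620.5 CPM in WT and from 182 to 519 CPM in Lrg1-/- libraries, and Slc1a2 from 2847 to 4299 and from 385 to 1514 CPM. Aqp4 ranged from 199 to 382 and from 92.9 to 283 CPM, and Gja1 from 238 to 483 and from 109 to 261 CPM. Within each surgery the genotypes did not overlap for Gja1, at 429 to 483 against 123 to 261 CPM after sham surgery and 238 to 310 against 109 to 214 CPM after MCAO/R. For Aqp4 they did not overlap after sham surgery (349 to 382 against 92.9 to 248 CPM) and overlapped after MCAO/R (199 to 322 against 148 to 283 CPM).

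Of the related genes read from fixed lists, few were called in marker-only astrocytes, where 1.79% of all genes were called between genotypes after MCAO/R, 1.89% after sham surgery, and 5.71% and 3.02% between surgeries in WT and in Lrg1-/- mice. Among 8 genes of glutamate and amino acid handling, none was called between genotypes. Slc38a3, a glutamine exporter, was lower after MCAO/R than after sham surgery in WT mice (66.9 ± 5.7 against 129.6 ± 15.8 CPM, SD, -0.94 ± 0.24, adjusted p = 0.0276). In Lrg1-/- mice the GABA transporter Slc6a11 (-1.50 ± 0.28, adjusted p = 0.0163) and the neutral amino acid exchanger Slc7a10 (-1.39 ± 0.32, adjusted p = 0.0314) were lower after MCAO/R. Among 10 ion genes, the potassium channel Kcnk1 was lower in Lrg1-/- than in WT mice after MCAO/R (-1.37 ± 0.33, adjusted p = 0.0461). The bicarbonate cotransporter Slc4a4 was lower after MCAO/R within Lrg1-/- mice (-0.96 ± 0.23, adjusted p = 0.0402), and the pump subunit Atp1b1 was lower in Lrg1-/- than in WT mice after sham surgery (-1.53 ± 0.35, adjusted p = 0.0345). In the mixed cells of the rule the call of Atp1b1 had the opposite direction, at 267 ± 85 CPM in sham + Lrg1-/- against 137 ± 6.3 CPM in sham + WT mice (SD, 0.96 ± 0.28, adjusted p = 0.0423), from 0.68 to 1.14 with 1 library left out and kept in 5 of 11 fits, so that its direction depended on which cells were summed. Among 8 of 9 water and endfoot genes that could be tested, Dmd, whose product anchors aquaporin-4 at endfeet, was lower after MCAO/R in WT mice (430.0 ± 19.9 against 827 ± 116 CPM, SD, -0.94 ± 0.21, adjusted p = 0.0166) and in Lrg1-/- mice (584 ± 66 against 1083 ± 26 CPM, -0.89 ± 0.20, adjusted p = 0.0312). The 2 genes on the gap junction list, Gjb2 and Panx1, did not pass the filter. Each of these calls was lost without at least 3 of the 11 libraries taken singly. The calls of Slc38a3 and of Dmd in WT mice were lost without sham + WT replicate 1 or 2 or MCAO/R + WT replicate 1, and that of Slc38a3 also without sham + WT replicate 3. The call of Slc6a11 was lost without sham + Lrg1-/- replicate 2 or 5 or MCAO/R + Lrg1-/- replicate 5. Those of Slc7a10, Kcnk1, Slc4a4, Atp1b1 and of Dmd in Lrg1-/- mice were kept in only 5, 3, 2, 5 and 4 of 11 fits, with adjusted p up to 0.213, and sham + Lrg1-/- replicate 2 was a library whose absence ended each of the 5.

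Genes of reactive astrocytes changed with surgery in marker-only cells. Of 12 genes on the list, 9 passed the filter on low counts. In WT mice 8 of these 9 were called higher after MCAO/R, where 5.71% of all genes were called. A gene near 0 after sham surgery, such as Lcn2, could pass the filter only through the MCAO/R libraries. The direction of such a gene was thus set by the filter, and the count is not a test against that share. Serpina3n was at 4.1, 2.7 and 12.5 CPM in sham + WT and at 527 and 61.1 CPM in MCAO/R + WT mice (5.53 ± 0.83, adjusted p = 0.00196). Lcn2, which encodes lipocalin-2, was listed at 0 UMIs in all 6 sham libraries and at 602 and 44.6 CPM in MCAO/R + WT mice. Replicate 1 of MCAO/R + WT thus stood well above replicate 2. Cxcl10, a chemokine gene, was also higher (3.96 ± 0.70, adjusted p = 0.0041), a call lost without MCAO/R + WT replicate 1 (difference 0.78, adjusted p = 0.206). In Lrg1-/- mice 1 of 9 was called, against 3.02% of all genes, the intermediate filament gene Gfap (4.91 ± 0.79, adjusted p = 0.00926), from 17.7, 54.4 and 24.7 CPM to 1008, 1345 and 286 CPM, lost without sham + Lrg1-/- replicate 2 or 5 (adjusted p up to 0.0674). Lcn2 was at 438, 243 and 175 CPM in MCAO/R + Lrg1-/- mice (adjusted p = 0.0691). Serpina3n was listed at 0 UMIs in the 3 sham + Lrg1-/- libraries and was at 68.4, 325 and 278 CPM in MCAO/R + Lrg1-/- mice (adjusted p = 0.0714). For both genes every MCAO/R + Lrg1-/- value was above every sham + Lrg1-/- value. The median surgery difference of the 9 genes was 3.78 in Lrg1-/- and 3.48 in WT mice. Both are fitted values that include genes listed at 0 UMIs after sham surgery, so that their sizes cannot be compared between genotypes. The interaction was called by edgeR for 0 of 9 genes, with 0 at an unadjusted p under 0.05, so that no difference between the surgery effects of the genotypes was detectable. Between genotypes Cxcl10 was lower in MCAO/R + Lrg1-/- mice, at 18.2, 34.8 and 55.7 CPM against 1243 and 71.6 CPM (-4.27 ± 0.90, adjusted p = 0.0238). Without MCAO/R + WT replicate 1 the difference was -1.12 and the call was lost, as it was without any 1 MCAO/R + Lrg1-/- library (adjusted p up to 0.167).

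In the mixed cells of the rule, other related genes were called between genotypes. The shares of all genes called were 12.5% after MCAO/R and 14.8% after sham surgery. After MCAO/R, the GABA transporter gene Slc6a11 (-1.72 ± 0.47), the pump regulator gene Fxyd1 (1.54 ± 0.24) and 2 of 9 endfoot genes (Hepacam, -1.13 ± 0.28, and Dtna, -1.69 ± 0.44) were called. So was Gjb2 (-2.19 ± 0.55), which with Panx1 made up the gap junction list. After sham surgery 3 of 8 amino acid genes were lower (Glud1, Slc1a4 and Slc25a18), the ion genes Fxyd1 and Atp1b1 were higher, and 3 of 9 endfoot genes (Trpv4 higher, Hepacam and Dtna lower) were called. Fxyd1 (1.88 ± 0.21, adjusted p = 0.00509) and Trpv4 (2.28 ± 0.44, adjusted p = 0.0118), both known from choroid plexus as well as glia, were higher in the sham + Lrg1-/- cells, in which the choroid plexus markers summed to 89364 to 110252 plain CPM. The part of those markers in the result was not tested. With 1 library left out, every MCAO/R call named here was lost without MCAO/R + WT replicate 2 (adjusted p up to 0.323 over all fits). Every sham call named here but that of Fxyd1 was lost without sham + WT replicate 1 or 2 (adjusted p up to 0.132), and Fxyd1 was kept in all 11 fits after sham surgery.

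Levels across cell types set the 8 genes apart from each other. Cell types were read by the same kind of gate in libraries with at least 20 cells, and values are plain CPM with the lowest and highest library. Cells of the other types met no further gate and did not meet the astrocyte rule, except that ependymal cells could meet the rule too. Astrocytes by the rule and ependymal cells could therefore share cells. Because Aqp4, Gja1, Slc1a2 and Slc1a3 are rule genes, low levels of these in the other types are partly set by the gates. The ranges pool all 4 groups, so that types whose pooled ranges overlapped could still be apart within a group. Aqp4 was shared by ependymal cells (median 441, 322 to 569, 7 libraries) and astrocytes (282, 67.4 to 419, 11 libraries), whose ranges overlapped, with a median of at most 5.57 elsewhere. Gjb6 was read at a median of 54.3 in astrocytes (20.3 to 308) and at most 2.24 in types with more than 1 library. The single fibroblast library with enough cells read 245, and it also read 312 for Gja1, 646 for Slc1a3 and 1411 for Glul. Kcnj10 was highest in oligodendrocytes (167, 95.4 to 211), ahead of ependymal cells (124, 63.4 to 141) and astrocytes (90.2, 32.9 to 123), and these 3 ranges overlapped. Every other type had a median of at most 11.4. Within sham + WT mice the 3 types did not overlap for Kcnj10. Oligodendrocytes were at 167 to 187, ependymal cells at 124 to 139 and astrocytes by the rule at 104 to 123. However, marker-only astrocytes of these mice were at 170 to 200 CPM and oligodendrocytes at 163 to 190 CPM after TMM adjustment, which overlapped. The 2 types also overlapped so in both Lrg1-/- groups. In MCAO/R + WT mice marker-only astrocytes were at 112 to 142 CPM and oligodendrocytes at 158 to 166 CPM. TMM factors were set for each type separately, so that these values do not order the 2 types. Atp1b2 had pooled medians of 300.3 in mural cells of vessels (163 to 456) and 296 in astrocytes (89.8 to 330). With astrocytes by the rule, the order of these 2 types differed between groups. In MCAO/R + WT mice Atp1b2 was at 313 to 318 in astrocytes and 201 to 242 in mural cells. In sham + Lrg1-/- mice it was at 89.8 to 167 in astrocytes and 359 to 456 in mural cells, with no overlap in either group. In marker-only astrocytes of sham + Lrg1-/- mice it was at 330 to 889 CPM (TMM-adjusted). The mural values are plain CPM, so that the 2 ranges do not order the types.

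Slc1a2 was highest in astrocytes (1444, 285 to 4615), which no other type overlapped, and ependymal cells (162, 129 to 223) and neuroblasts and neurons (144, 99.9 to 194) came next, with overlap between the last 2. Slc1a3 was at 495 in astrocytes (132 to 1777), 260.0 in ependymal cells (240 to 415), 186 in neuroblasts and neurons (74.9 to 299) and 118 in microglia (68.4 to 208), each overlapping the next over all groups. In WT mice alone Slc1a3 was at 1196 to 1777 in astrocytes and 248 to 356 in ependymal cells. Gja1 had pooled medians of 252 in ependymal cells (234 to 348, with no sham + Lrg1-/- library) and 249 in astrocytes (89.5 to 518), and endothelial cells followed at 41.3 (26.1 to 83.3). Within WT mice astrocytes were above ependymal cells for Gja1, at 490.2 to 518 against 255 to 348 after sham surgery and 269.5 to 339 against 234 to 240.2 after MCAO/R. Within MCAO/R + Lrg1-/- mice astrocytes by the rule were below, at 95.3 to 219 against 247 to 252. The marker-only astrocytes of these mice were at 278 to 445 CPM (TMM-adjusted). The ependymal values are plain CPM, so that these do not order the 2 types. Glul was broad. Among types with more than 1 library it was highest in oligodendrocytes (1065, 553 to 1607) and endothelial cells (886, 557 to 1036), then in macrophages (630, 148 to 963), microglia (454, 377 to 708) and astrocytes by the rule (415, 285 to 1419), all overlapping. This order is over libraries of all groups and differed within WT mice. Mean Glul of astrocytes by the rule was 979.9 plain CPM in sham + WT mice, against 599 in microglia and 533 in macrophages, and 1114 plain CPM in MCAO/R + WT mice, against 644 and 894. The astrocyte values include the mixed cells, and 4 of the 8 genes helped to choose those cells. Marker-only astrocytes of sham + WT mice had Glul at 1431 to 1802 CPM (TMM-adjusted). Oligodendrocytes were at 1206 to 1384 and endothelial cells at 951 to 1021. Against oligodendrocytes, the astrocytes were at 1257 to 2101 against 1435 to 1532 in MCAO/R + WT mice. In sham + Lrg1-/- mice they were at 536 to 877 against 859 to 1082, and in MCAO/R + Lrg1-/- mice at 699 to 938 against 576 to 660. TMM factors were set for each type separately, so that these values do not order the types. Ependymal cells were too few for a test, with 5 to 16 cells in the sham + Lrg1-/- libraries.

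**Figure D4:**
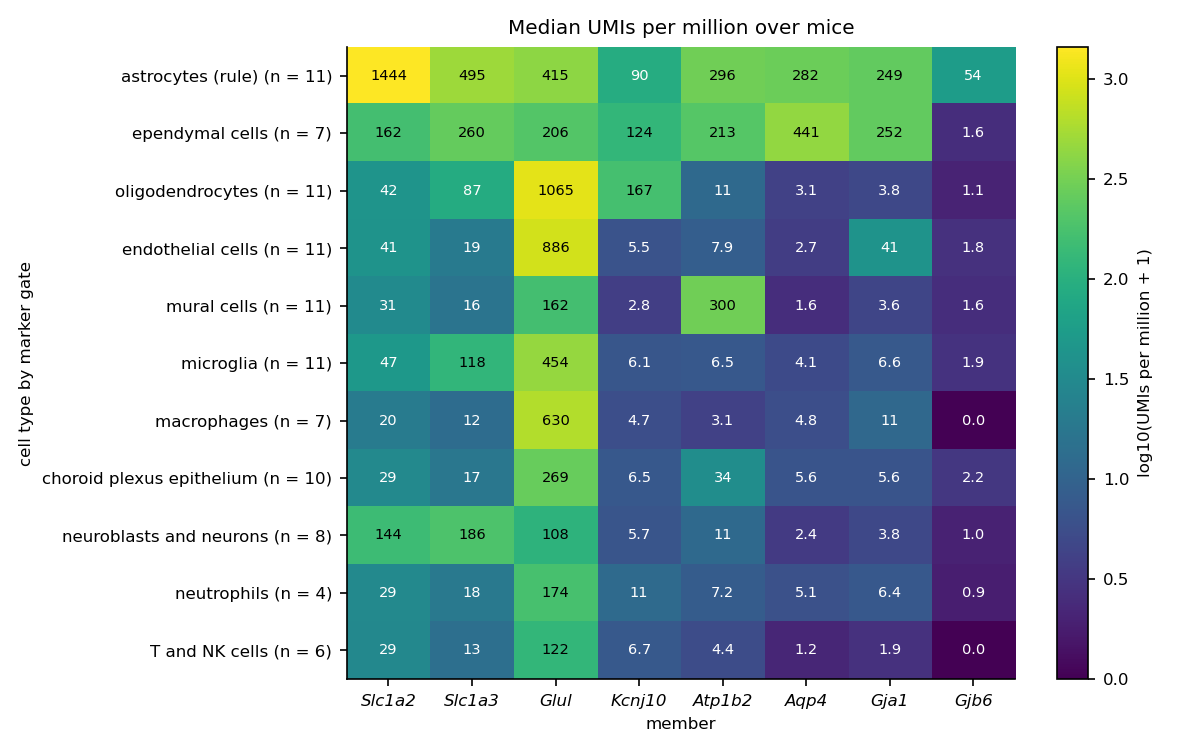
Median plain CPM of each of the 8 genes in each cell type, over the libraries with at least 20 cells, with the number of libraries beside each type. Gjb6 is largely a column of astrocytes, whereas Glul is high in oligodendrocytes (1065) and endothelial cells (886) too.

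Because Glul is expressed in several types, it could be followed outside astrocytes. In oligodendrocytes Glul was at 1384, 1272 and 1206 CPM in sham + WT, 859, 1082 and 1001 CPM in sham + Lrg1-/-, 1435 and 1532 CPM in MCAO/R + WT and 660, 645 and 576 CPM in MCAO/R + Lrg1-/- mice. The MCAO/R + Lrg1-/- mice were the lowest of all 11. Glul was lower in Lrg1-/- than in WT oligodendrocytes after MCAO/R (-1.24 ± 0.13, adjusted p = 2.69e-05, kept in all 11 fits). It also fell with MCAO/R within Lrg1-/- mice (-0.64 ± 0.12, adjusted p = 0.00263, kept in all 11 fits), whereas within WT mice the difference was 0.20 ± 0.13 (adjusted p = 0.309). The difference between genotypes in the effect of surgery was itself called (interaction -0.85 ± 0.18, adjusted p = 0.0171), and was lost without sham + WT replicate 3 or MCAO/R + WT replicate 2 (adjusted p up to 0.111). The sham difference of -0.40 ± 0.12 missed the threshold (adjusted p = 0.0647).

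Kcnj10, which oligodendrocytes use to clear potassium along axons, was at 163, 184 and 189.99 CPM in sham + WT, 161, 183 and 218 CPM in sham + Lrg1-/-, 166 and 158 CPM in MCAO/R + WT and 120.2, 122 and 99.3 CPM in MCAO/R + Lrg1-/- mice. The MCAO/R + Lrg1-/- mice were again the lowest. Kcnj10 was lower than in WT after MCAO/R (-0.51 ± 0.14, adjusted p = 0.0105, lost without either MCAO/R + WT library, adjusted p up to 0.0719) and lower than after sham surgery within Lrg1-/- mice (-0.70 ± 0.14, adjusted p = 0.00326, kept in all 11 fits). The interaction was not called (-0.56 ± 0.19, adjusted p = 0.114).

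The other calls in oligodendrocytes were of astrocyte genes at low levels. After MCAO/R, Aqp4 (1.86 ± 0.41), Gja1 (1.67 ± 0.37), Atp1b2 (1.33 ± 0.33) and Slc1a3 (0.66 ± 0.22) were higher in Lrg1-/- cells. Gja1 was at 1.4 and 3.6 CPM in MCAO/R + WT and at 9.2, 8.1 and 8.8 CPM in MCAO/R + Lrg1-/- mice, against 89.5 plain CPM or more in the rule astrocytes of every library. That made 6 of 8 genes, 4 higher and 2 lower, where 35.2% of all genes were called. The Atp1b2 call was lost without MCAO/R + WT replicate 1 and that of Slc1a3 without sham + WT replicate 2, MCAO/R + WT replicate 1 or MCAO/R + Lrg1-/- replicate 1 or 5 (adjusted p up to 0.239). Within Lrg1-/- mice 3 of 8 were called with surgery (background 19.1%), with Gja1 higher (1.68 ± 0.50, adjusted p = 0.0322, lost without any 1 sham + Lrg1-/- library or MCAO/R + Lrg1-/- replicate 5, adjusted p up to 0.182). Within WT mice only Slc1a3 was called, lower by -0.94 ± 0.22 (adjusted p = 0.00714, background 21.2%), and not without MCAO/R + WT replicate 1 (adjusted p = 0.102). After sham surgery only Atp1b2 was called, higher by 1.65 ± 0.37 (adjusted p = 0.0218, background 6.67%), kept in 7 of 11 fits and lost without sham + WT replicate 1 or 3 or sham + Lrg1-/- replicate 1 or 5 (adjusted p up to 0.082). The interaction was called for 2 of 8 genes (background 4.95%), Glul and Gja1.

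**Figure D5:**
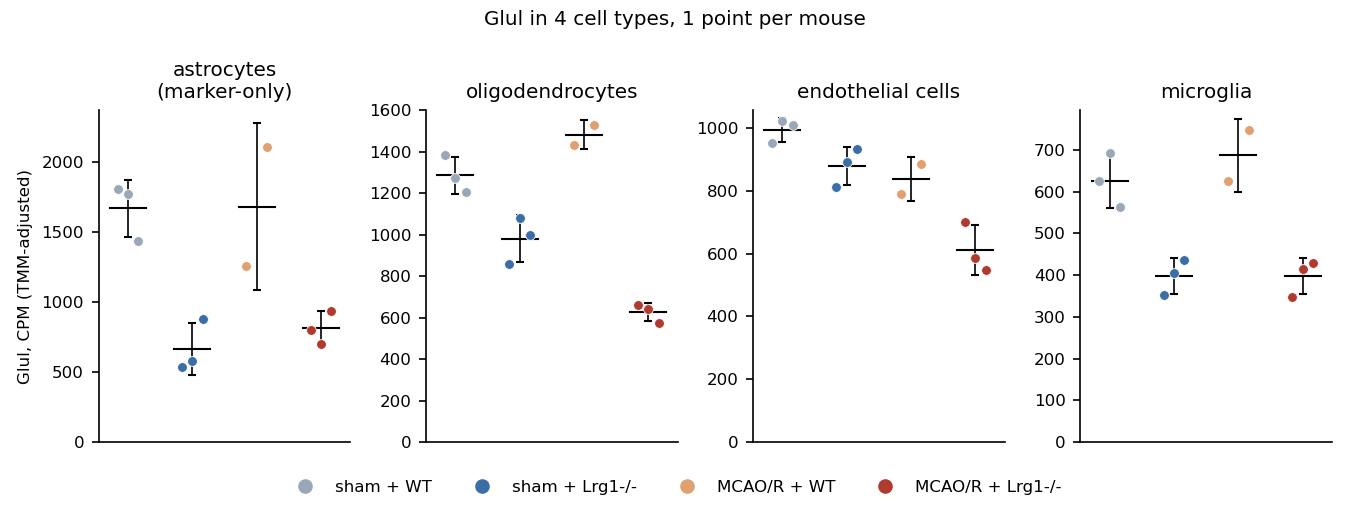
Glul CPM in marker-only astrocytes, oligodendrocytes, endothelial cells and microglia, with 1 point per mouse and the mean and SD of each group. In oligodendrocytes the MCAO/R + Lrg1-/- mice lie at 576 to 660 CPM, below the other 8 mice.

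Endothelial cells and microglia were added after the first results were seen. In endothelial cells Glul was at 789 and 886 CPM in MCAO/R + WT and at 701, 585 and 549 CPM in MCAO/R + Lrg1-/- mice (-0.45 ± 0.12, adjusted p = 0.0153). This was the 1 call of 8 (background 26.7%) and was lost without MCAO/R + WT replicate 2 or MCAO/R + Lrg1-/- replicate 2 (adjusted p up to 0.134). Within Lrg1-/- mice Glul was lower after MCAO/R (-0.52 ± 0.11, adjusted p = 0.00605) and Gja1, which also joins endothelial cells, was higher (1.30 ± 0.26, adjusted p = 0.00465), 2 of 8 genes against 19.6% of all, both kept in all 11 fits. Gja1 was at 26.2, 31.6 and 29.5 CPM in sham + Lrg1-/- and at 76.8, 87.3 and 46.1 CPM in MCAO/R + Lrg1-/- mice, without overlap. In WT mice it was at 38.8, 34.6 and 41.1 CPM after sham surgery and at 82.4 and 44.0 CPM after MCAO/R (0.73 ± 0.25, adjusted p = 0.0715), where 0 of 8 genes were called by edgeR and by DESeq2 (1 at an unadjusted p under 0.05, background 15.6%). The sham comparison of genotypes called 0 of 8 by edgeR and by DESeq2 (1 at an unadjusted p under 0.05, background 10.1%).

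In microglia Glul was at 625, 693 and 562 CPM in sham + WT, 352, 406 and 437 CPM in sham + Lrg1-/-, 626 and 748 CPM in MCAO/R + WT and 348, 416 and 430.0 CPM in MCAO/R + Lrg1-/- mice. The genotypes did not overlap. Glul was lower in the knockout after sham surgery (-0.65 ± 0.14, adjusted p = 0.00319) and after MCAO/R (-0.79 ± 0.15, adjusted p = 0.00176), and both calls were kept in all 11 fits. Slc1a3 was lower after MCAO/R (-1.07 ± 0.20, adjusted p = 0.00163, kept in all 11 fits), from 137 and 220 CPM to 105, 71.5 and 78.7 CPM. Kcnj10 (1.49 ± 0.42), Aqp4 (1.13 ± 0.39), Atp1b2 (1.02 ± 0.37) and Gja1 (0.84 ± 0.23) were higher after MCAO/R at 3.7 to 19.5 CPM in the knockout mice, and each lost its call without MCAO/R + WT replicate 1. Those of Aqp4 and Atp1b2 were also lost without MCAO/R + Lrg1-/- replicate 1, and that of Atp1b2 without any 1 sham library, with adjusted p up to 0.226. In all, 6 of 8 genes were called after MCAO/R (background 36%) and 5 of 8 after sham surgery (background 35%), where the same 4 genes at low levels were higher. Among these Atp1b2 (1.83 ± 0.33, adjusted p = 0.0014) was kept in all 11 fits. Gja1 was lost without sham + WT replicate 3 or sham + Lrg1-/- replicate 5, and Aqp4 and Kcnj10 without any 1 sham library, and Aqp4 also without MCAO/R + Lrg1-/- replicate 5 (adjusted p up to 0.186). Surgery called 0 of 8 in WT mice by edgeR and by DESeq2 (0 at an unadjusted p under 0.05, background 19.3%) and 0 of 8 in Lrg1-/- mice (DESeq2 1, with 1 at an unadjusted p under 0.05, background 34%). Median UMIs per microglial cell were 2454 to 7186 in MCAO/R + Lrg1-/- and 9117.5 and 11218.5 in MCAO/R + WT libraries. After sham surgery they were 3125.5 to 3788 in Lrg1-/- and 7629 to 9978 in WT libraries. The part of depth in the microglia differences was not tested.

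The genes whose levels ran most like the 8 genes were read across 98 sums of a cell type in a library, among 7995 genes with a mean of at least 20 CPM. The measure was Pearson's r with the mean of the 8 genes' standardised log2(CPM + 1) values, and the sums share libraries and depth, so that it describes and does not test. Fgfr3, a growth factor receptor gene of astrocytes, led (r = 0.90), followed by the GABA receptor gene Gabrb1 (0.88), Csmd1 (0.85), the transcription factor gene Npas3 (0.85), Ntsr2 (0.84), Slc6a11 (0.84), the transcription factor gene Rfx4 (0.83) and Gpr37l1 (0.83). Ntsr2 and Gpr37l1 are markers of the second gate. Among the 8 genes themselves r with their mean was highest for Slc1a2 (0.87) and Aqp4 (0.86) and lowest for Glul (0.37). Aqp4, Gja1, Slc1a2 and Slc1a3 helped to choose the astrocyte sums, and each gene is part of the mean. This order is therefore partly set by the gates.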

How the data were processed

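Single-cell libraries of 11 mice (10x 3′ chemistry) were used. The deposited tables hold raw UMI counts of every gene in each barcode, made by the authors with Cell Ranger 7.0.1 per the file headers. The study's methods name an earlier version of Cell Ranger. The submitters' processing notes name STAR and mm10, and whether intronic reads were counted is not given in the sources used here. Lower numbers of UMIs per cell make a marker gate harder to pass. Samples were grouped by their labels. The 8 genes, the gene lists and the gates were chosen with earlier results of these data known. Cells were kept at over 500 genes, over 1000 UMIs and under 25% mitochondrial UMIs, and no doublet caller was run. Counts were summed per library with at least 20 cells of a type (10 for marker-only astrocytes) and fitted in edgeR 4.0.16 (R 4.3.3, limma 3.58.1) with TMM factors and filterByExpr, all 4 groups in 1 model. The fit was tested on simulated data. DESeq2 1.42.0 was an alternative. Related genes were named as the up to 3 called genes per list and comparison with the lowest adjusted p, and all 8 genes were given throughout. Python 3.11.15 (numpy 2.4.6, pandas 2.3.3, scipy 1.17.1, matplotlib 3.10.9) prepared sums and figures. Alternatives were other size factors, DESeq2, no filter, a replicate block, only the groups compared, 1 library left out, 10% mitochondrial UMIs, 2000 UMIs per cell, 3 or 5 markers, and no mixed cells. The planned fit of ependymal cells was not run because 2 libraries with 20 cells were not reached in every group. Same-numbered replicates did not deviate together in astrocytes by the rule, which cannot exclude a pairing. Results of some related genes are not reported here.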

Additional observations from a re-analysis of the deposited data

Results flagged for a closer look

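For 2 genes in oligodendrocytes the effect of surgery differed between the genotypes by a test of the difference itself. Glul had an interaction of -0.85 ± 0.18 (edgeR, adjusted p = 0.0171), with 0.20 between MCAO/R and sham surgery in WT mice and -0.64 in Lrg1-/- mice. It was lost without sham + WT replicate 3 or MCAO/R + WT replicate 2 (adjusted p up to 0.111). Gja1 had an interaction of 2.38 ± 0.62 (adjusted p = 0.0438), at 2.0 to 4.9 CPM in the sham mice, 1.4 and 3.6 CPM in MCAO/R + WT mice and 8.1 to 9.2 CPM in MCAO/R + Lrg1-/- mice. The sham + Lrg1-/- libraries held 5, 2 and 1 Gja1 UMIs, and rule astrocytes were at 89.5 plain CPM or more in every library. The interaction was called for 4.95% of all genes in oligodendrocytes. Its call was kept in 1 of 11 fits with 1 library left out, the one without MCAO/R + WT replicate 2 (adjusted p up to 0.144 in the others). The groups of 2 or 3 mice were too small for a test of single outlying mice.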

How the results depend on the processing

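Counts are of the 8 genes called, or of 4 in astrocytes by the rule. Among 46 calls of single genes, 672 alternatives kept the call, 210 kept the direction only and 0 reversed it. In astrocytes by the rule, same-numbered mice showed no common deviation from their group means (correlations of -0.28 to 0.22, 13 pairs, and -0.22 to 0.28 between others). The deviations of the 2 MCAO/R + WT mice are opposite by construction, so that these values cannot exclude a pairing. With the replicate block the rule and second-gate astrocytes lost all genotype calls (0 in each against 2, 2, 4 and 6, with 0 genes of all called against 2120, 2499, 2124 and 3161), marker-only astrocytes after MCAO/R went from 2 to 4, oligodendrocytes went from 1 to 0 (sham) and from 2 to 1 (interaction), endothelial cells after MCAO/R went from 1 to 0, and microglia went to 2 after MCAO/R and 2 after sham surgery. With only the groups compared, the genotype counts after MCAO/R were 1 (rule), 1 (second gate), 0 (endothelial cells) and 2 (microglia), those after sham surgery were 2 (endothelial cells) and 8 (microglia), and the WT surgery count of the second gate was 1. DESeq2 called 1 gene in rule astrocytes for surgery in Lrg1-/- mice and 1 for the interaction, 2 in oligodendrocytes after sham surgery, 2 in endothelial cells after MCAO/R (also 2 with other size factors) and 1 in microglia for surgery in Lrg1-/- mice. Over all genes DESeq2 called 3923 and 3858 for the genotype in rule astrocytes and 299 and 355 in marker-only astrocytes, against 125 and 132 by edgeR. Thinning each cell to 2000 UMIs gave 0 (rule, sham), 1 and 1 (second gate, WT surgery and sham), 6, 1 and 0 (marker-only, MCAO/R, WT surgery and sham, where 1 sham + Lrg1-/- library remained), 3, 1, 0 and 0 (oligodendrocytes, MCAO/R, surgery in Lrg1-/-, sham and interaction) and 1 (endothelial cells, sham). Leaving out cells of another gate gave 0 for sham in both astrocyte gates, and marker-only cells of the rule gave 1 after MCAO/R and 0 after sham surgery. Asking for 3 markers gave 1 (rule, surgery in Lrg1-/-), and in oligodendrocytes 0 (WT surgery), 2 (sham) and 1 (interaction). Asking for 5 gave 0 and 1 (second gate, MCAO/R and sham) and 1 (oligodendrocytes, interaction). In oligodendrocytes the 10% mitochondrial limit gave 0 (sham) and 1 (interaction), and no filter on low counts gave 2 (sham), and 1 in endothelial cells for WT surgery. Leaving out 1 library gave, for MCAO/R, sham, WT surgery, Lrg1-/- surgery and interaction, 1 to 3, 0 to 3, 0, 0 to 2 and 0 (rule), 1 to 6, 1 to 7, 0, 0 to 1 and 0 (second gate), 0 to 3, 1 to 3, 0, 0 and 0 (marker-only), 3 to 7, 0 to 2, 0 to 2, 2 to 3 and 0 to 1 (oligodendrocytes). For the first 4 of these it gave 1, 0, 0 to 1 and 2 (endothelial cells) and 3 to 6, 2 to 7, 0 to 2 and 0 to 2 (microglia). The cause of these moves was not tested. There were 15 to 27 marker-only cells per sham + Lrg1-/- library, and the effect of this on the calls was not tested.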
